A study of Mus musculus with 22 samples.

Results

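The cytosolic ribosomal protein genes encode the protein parts of the ribosome that works in the cytosol. They were taken by symbol, as Rpl or Rps followed by a number and at most 1 letter, together with Rplp0, Rplp1, Rplp2 and Rpsa, without symbols ending in -ps, which mark pseudogenes, and without the S6 kinases. RefSeq annotates 1 of the genes kept, Rps4l, as a transcribed pseudogene. There were 73 of them among the 22485 named genes of the array, 47 of the large subunit (Rpl and Rplp) and 26 of the small subunit (Rps and Rpsa). Each was read from 1 probe, namely its brightest by the mean of all 22 samples. The choice used no measured difference between groups. Other ribosomal protein genes that are not in the table were not analysed here.

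Astrocytes and microglia were sorted from the dissociated cortex of APPswe/PS1dE9 mice, called APP/PS1 here, and of wild-type (WT) littermates, all of the C57BL/6 strain and 15 to 18 months old. The groups were APP/PS1 astrocytes and WT astrocytes, 4 samples each, and APP/PS1 microglia and WT microglia, 7 samples each. Amyloid plaques form in the brains of the APP/PS1 mice, whose transgenes are expressed under prion protein promoter sequence. The promoter is not specific to glia, and the WT littermates carry no transgene. Astrocytes were taken as cells with GLT1 at the surface and no CD11b, microglia as cells with CD11b and CD45, both after removal of myelin debris and exclusion of cells with O4, a marker of the oligodendrocyte line. Whether 1 sample was 1 mouse or a pool is not given in the sources used here. RNA was amplified, labelled with Cy3 or Cy5 and hybridised to Agilent dual-colour arrays, and each array paired 1 APP/PS1 with 1 WT sample of matching cell type and number. All values below are the deposited log2 intensities of single channels, and a difference of 1 on this scale is a doubling. The sample distributions had been made nearly alike, with medians over all probes between 6.24 and 6.26, so a change shared by all genes could not be seen.

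A cytosolic ribosome consists of a small subunit, which reads the messenger RNA, and a large subunit, which joins the amino acids. Most ribosomal proteins are needed in 1 copy per ribosome, and cells usually make their transcripts in a coordinated way. In mammals nearly all of these transcripts begin at a C within a run of pyrimidines, the terminal oligopyrimidine tract, through which mTORC1 signalling and the RNA-binding protein LARP1 control their translation. Some ribosomal proteins also work outside the ribosome: free RPL5 and RPL11 bind the p53 regulator MDM2 together with 5S ribosomal RNA. Ribosomal protein genes have many processed pseudogenes and near-identical copies, so part of the signal of any one probe can come from a copy.

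The pyrimidine tract was looked for in RefSeq start regions of build GRCm38.p6, as a C followed by at least 7 further C or T on the transcript strand, within 50 bases before and 30 bases from the annotated start. Of the 73 genes, 58 had such regions, 70 regions in all, and 58.6% of these regions held a tract, against 24.2% of all 32851 regions in the table. The share was 58.1% for large-subunit and 59.3% for small-subunit regions, and 29.3% for regions of mitochondrial ribosomal protein genes, whose proteins build the separate ribosome of the mitochondrion. Regions are given here from 40 bases before the start to 25 bases from it, with the tract in capitals, for 6 genes in which it lay at or close to the start and for 2 tissue-restricted paralogs that had none and are described further on.
Rps6, chr4:86857343-86857407, minus strand: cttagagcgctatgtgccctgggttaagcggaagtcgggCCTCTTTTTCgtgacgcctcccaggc
Rps10, chr17:27635220-27635284, minus strand: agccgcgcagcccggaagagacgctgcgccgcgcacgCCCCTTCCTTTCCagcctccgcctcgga
Rplp2, chr7:141447611-141447675, plus strand: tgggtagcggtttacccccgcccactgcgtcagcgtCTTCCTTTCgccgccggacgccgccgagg
Rpl15, chr14:18270962-18271026, minus strand: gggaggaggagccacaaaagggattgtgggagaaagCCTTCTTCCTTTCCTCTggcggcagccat
Rpl35, chr2:39005107-39005171, minus strand: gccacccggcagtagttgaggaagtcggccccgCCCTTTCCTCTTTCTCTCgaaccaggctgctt
Rpl38, chr11:114668540-114668604, plus strand: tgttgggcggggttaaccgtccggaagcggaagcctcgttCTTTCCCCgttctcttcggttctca
Rpl10l, chr12:66284377-66284441, minus strand: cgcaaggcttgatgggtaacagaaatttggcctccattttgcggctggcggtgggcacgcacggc
Rpl3l, chr17:24727786-24727850, plus strand: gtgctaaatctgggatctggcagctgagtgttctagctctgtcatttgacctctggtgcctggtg
In the same windows, searched on both strands, CTTTCC was found in 21.4% of the cytosolic ribosomal protein regions. It was in 12.0% of the mitochondrial ribosomal protein regions and 7.24% of all regions. The letters CTTCCG, part of the ETS family motif, were found in 30.0% of the cytosolic, 41.3% of the mitochondrial and 8.09% of all regions. TATAAA, the core of a TATA box, was found in 4.29% of the cytosolic, 0.0% of the mitochondrial and 4.37% of all regions. CTTTCC is itself a run of pyrimidines and can lie inside a tract. These are matches of letters and not known binding sites.

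In astrocytes nearly every ribosomal protein gene was higher in APP/PS1 than in WT mice. With limma and Benjamini-Hochberg adjustment over all genes at 0.05, 69 of the 73 rose and 0 fell, 43 of 47 in the large subunit and 26 of 26 in the small. At an unadjusted p under 0.05 these counts were likewise 69 and 0. Of all 22474 genes tested in astrocytes, 15.4% rose and 18.0% fell, 33.4% in all. The median difference, APP/PS1 minus WT, was 0.69 over the 73 genes, a median fold of 1.62, and it was -0.07 over all genes. The calls had estimates between 0.27 and 1.11, with standard errors of 0.07 to 0.17 and adjusted p between 7.94e-05 and 0.029. There were also 69 genes higher on every astrocyte array that measured them, 68 of them among the calls, where 18.9% of all genes were higher on every such array. Rpl37 was blank on array 4, and the other members were measured on all 4. In 45 genes the lowest APP/PS1 sample lay above the highest WT sample, as in 6.42% of all genes. When astrocytes were fitted without the microglia arrays, which leaves few degrees of freedom, 39 of the 69 genes still passed. The main fit estimated 1 spread per gene from both cell types. Over the 73 genes, the median SD of a gene's difference across arrays was 0.22 in astrocytes and 0.15 in microglia. The astrocyte standard errors of the main fit may therefore be too small.

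**Figure D1:**
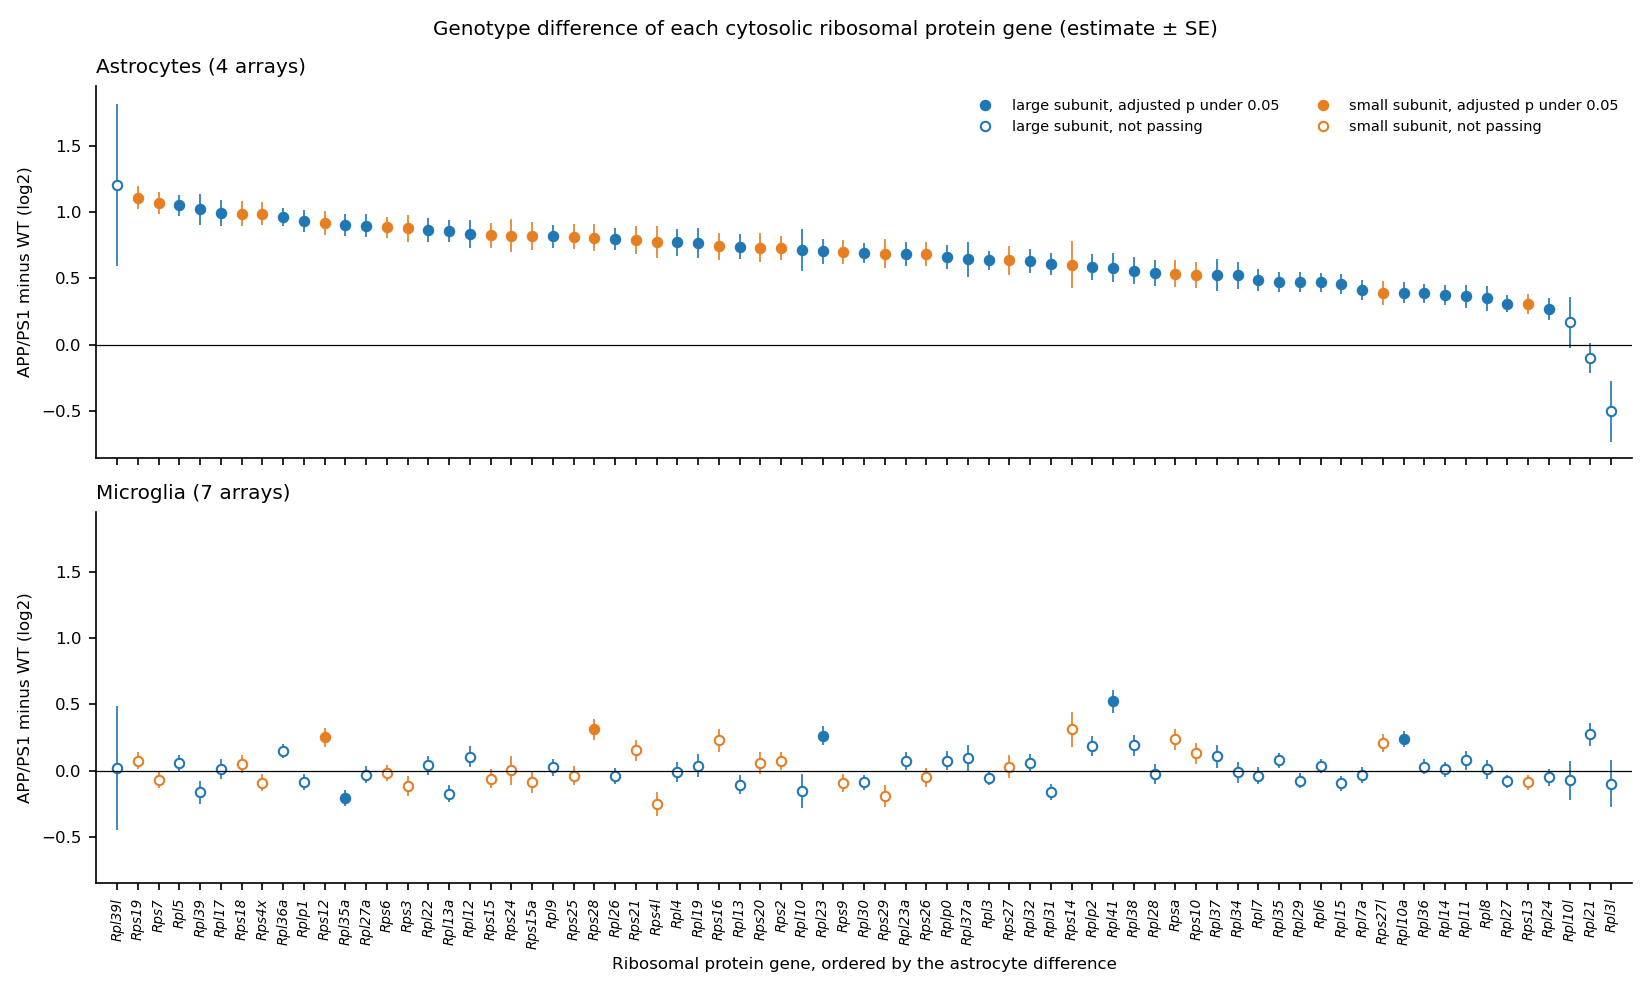
Difference between APP/PS1 and WT samples on the log2 scale for each of the 73 ribosomal protein genes, in astrocytes (top, 4 arrays) and microglia (bottom, 7 arrays), as the limma estimate with its standard error. Filled symbols passed an adjusted p of 0.05. In astrocytes 69 of 73 symbols are filled and above 0, while in microglia the genes lie around 0 with 6 filled.

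Small-subunit genes had the larger median difference. It was 0.78 in astrocytes, a fold of 1.72, against 0.63 and a fold of 1.55 in the large subunit. On each of the 4 arrays the small-subunit median was the higher one, by 0.12, 0.18, 0.17 and 0.18. The ranges of the subunits overlapped widely, and no test was made of this gap, since genes of 1 subunit are not replicates. The subunits also differed in signal, with a median level in WT astrocytes of 13.92 in the small and 14.71 in the large subunit. The part of the signal level in the gap was not tested. The interquartile range of the estimates was 0.52 to 0.83 over both subunits, and the estimates had an SD of 0.28 across genes.

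The largest estimate past the threshold belonged to Rps19, whose human counterpart is mutated in Diamond-Blackfan anaemia. Its log2 value was 13.92, 13.18, 12.82 and 13.69 in APP/PS1 astrocytes, against 12.59, 11.93, 12.14 and 12.52 in WT astrocytes. All 4 APP/PS1 samples were above all WT samples, with a difference of 1.11 ± 0.09 (SE) and an adjusted limma p of 9.84e-05, a fold of 2.15. Rps7, another small-subunit protein with a part in ribosomal RNA maturation, had values of 14.46, 14.00, 13.72 and 14.48 in APP/PS1 astrocytes, against 13.45, 12.76, 12.78 and 13.38 in WT astrocytes. The groups were again apart, by 1.07 ± 0.08 (limma adjusted p = 9.46e-05). In both genes the third APP/PS1 sample was the lowest of its group, as it was in 67 of the 73 genes. Further small-subunit genes among the 10 largest rises were Rps4x, Rps18 and Rps12, at 0.99, 0.99 and 0.92. RPS12 lies in the small subunit's head, and RPS18 at its interface with the large subunit.

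In the large subunit, Rpl5 and Rpl11, partners in the 5S particle, both rose. Rpl5 stood at 13.77, 13.34, 12.95 and 13.74 in APP/PS1 astrocytes, against 12.66, 12.19, 12.14 and 12.61 in WT astrocytes, a difference of 1.05 ± 0.08 (limma adjusted p = 9.84e-05). Rpl11 stood at 15.95, 15.88, 15.71 and 15.81 in APP/PS1 astrocytes, against 15.56, 15.30, 15.51 and 15.51 in WT astrocytes, a difference of 0.37 ± 0.09 (limma adjusted p = 0.0100). Neither gene's groups overlapped, and the gap between the genes was not tested. Rpl39, whose small protein lines the exit tunnel for new chains, rose by 1.02 ± 0.11, Rpl17 by 0.99 ± 0.10, and Rpl36a by 0.96 ± 0.07.

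The 3 proteins of the stalk, the arm of the large subunit that receives the elongation factors, rose together. Rplp1 was at 16.05, 15.74, 15.38 and 15.75 in APP/PS1 astrocytes, against 15.00, 14.57, 14.73 and 14.89 in WT astrocytes, a difference of 0.93 ± 0.08 (limma adjusted p = 0.000125). Rplp0, the base of the stalk, differed by 0.66 ± 0.09 and Rplp2 by 0.59 ± 0.10 (limma adjusted p = 0.000608 and 0.00144). For these last genes the third APP/PS1 sample lay within the WT range, so that the groups overlapped. Rps6, the target of the S6 kinases, was at 15.26, 15.02, 14.68 and 15.33 in APP/PS1 astrocytes, against 14.60, 14.03, 13.70 and 14.42 in WT astrocytes. Its groups were apart and differed by 0.89 ± 0.08 (limma adjusted p = 0.000125). Rpsa, which also serves as a laminin receptor, rose by 0.54 ± 0.10.

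**Figure D2:**
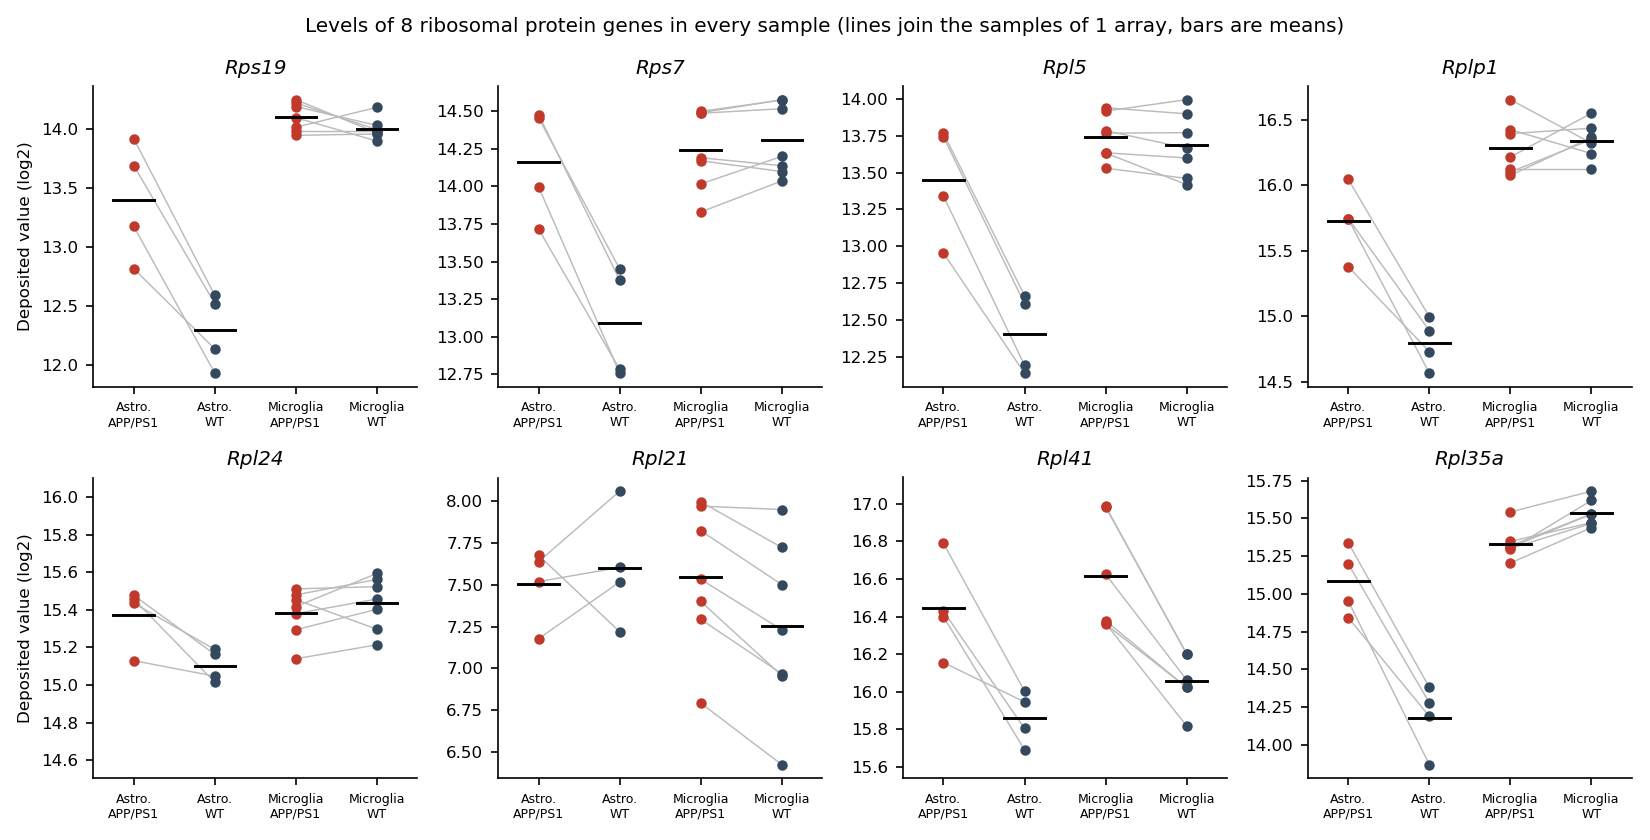
Deposited log2 values of 8 ribosomal protein genes in every sample, with APP/PS1 beside WT for astrocytes and for microglia. Points are samples, grey lines join the samples of 1 array, and black bars are group means. Rps19, Rps7, Rpl5 and Rplp1 are higher in all APP/PS1 astrocyte samples than in any WT astrocyte sample, while Rpl24 and Rpl21 overlap, Rpl41 is higher in APP/PS1 samples of both cell types, and Rpl35a is higher in APP/PS1 astrocytes and lower in APP/PS1 microglia.

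The smallest rises that passed were those of Rpl24, Rps13 and Rpl27, at 0.27, 0.31 and 0.31. Second probes of these genes differed by 0.49, 0.42 and 0.59, so the sizes depend on the probe. Rpl24 had values of 15.48, 15.43, 15.13 and 15.46 in APP/PS1 astrocytes, against 15.16, 15.19, 15.05 and 15.01 in WT astrocytes, so the groups overlapped through the third APP/PS1 sample (limma adjusted p = 0.0290). There were 4 genes that did not pass, and 3 of these are paralogs with tissue-restricted expression. Rpl3l, a paralog of Rpl3 found in striated muscle, had a difference of -0.50 ± 0.23 (limma adjusted p = 0.125). Rpl10l, a retrocopy of Rpl10 needed in spermatogenesis, had 0.17 ± 0.19, and Rpl39l, the germ-cell paralog of Rpl39, had 1.21 ± 0.61 (limma adjusted p = 0.557 and 0.163). The probe used for the remaining gene, Rpl21, had a mean of only 7.45, and its difference was -0.10 ± 0.11. The paralog Rps27l and the transcribed pseudogene Rps4l rose by 0.39 ± 0.09 and 0.77 ± 0.12. The 5 probes with the brightest signal, those of Rps14, Rpl10, Rpl37a, Rpl37 and Rps29, had differences of 0.60, 0.72, 0.64, 0.53 and 0.69, which passed too.

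Several near relatives fall outside the symbol rule. Rps3a1, the gene for the small-subunit protein RPS3A, was higher in APP/PS1 astrocytes by 1.08 ± 0.08 (limma adjusted p = 9.84e-05). Fau, which encodes RPS30 fused to a ubiquitin-like protein, was higher by 0.47 ± 0.13 (limma adjusted p = 0.0209). Among paralogs left out, Rpl22l1 rose by 0.38 and Rpl36al by 0.34, and Rpl7l1, at 0.17 ± 0.11, did not pass.

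Other probes of the same genes were read as well. The 49 genes with several probes had 91 further probes, and 86 of these were higher in APP/PS1 astrocytes, with a median of 0.68 against 0.70 for the brightest probes of the same genes. The 5 further probes below 0 belonged to Rpl10l, Rpl6, Rps15a, Rps3 and Rpsa. The same count in microglia was 50 of 91. The further probes ranged there from -0.56 for Rps24 to 0.76 for Rpl21, whose brightest probes had 0.00 and 0.27. The Rps24 probe at -0.56 was about as bright as the one used, with means of 15.48 and 15.50, and is annotated to another transcript.

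By array, the median difference over the 73 genes was 0.75, 0.80, 0.38 and 0.74 on astrocyte arrays 1 to 4. The median over all genes lay between -0.09 and -0.02 on these arrays. Array 3 had the lowest median in both subunits, at 0.35 in the large and 0.52 in the small. Summarised by sample, the median level of the 67 genes measured in all 22 samples was 14.84 to 15.38 in APP/PS1 astrocytes, with a mean of 15.18 ± 0.24 (SD, n = 4), and 14.30 to 14.76 in WT astrocytes, with a mean of 14.51 ± 0.21 (SD, n = 4). The lowest APP/PS1 sample was just above the highest WT sample.

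**Figure D3:**
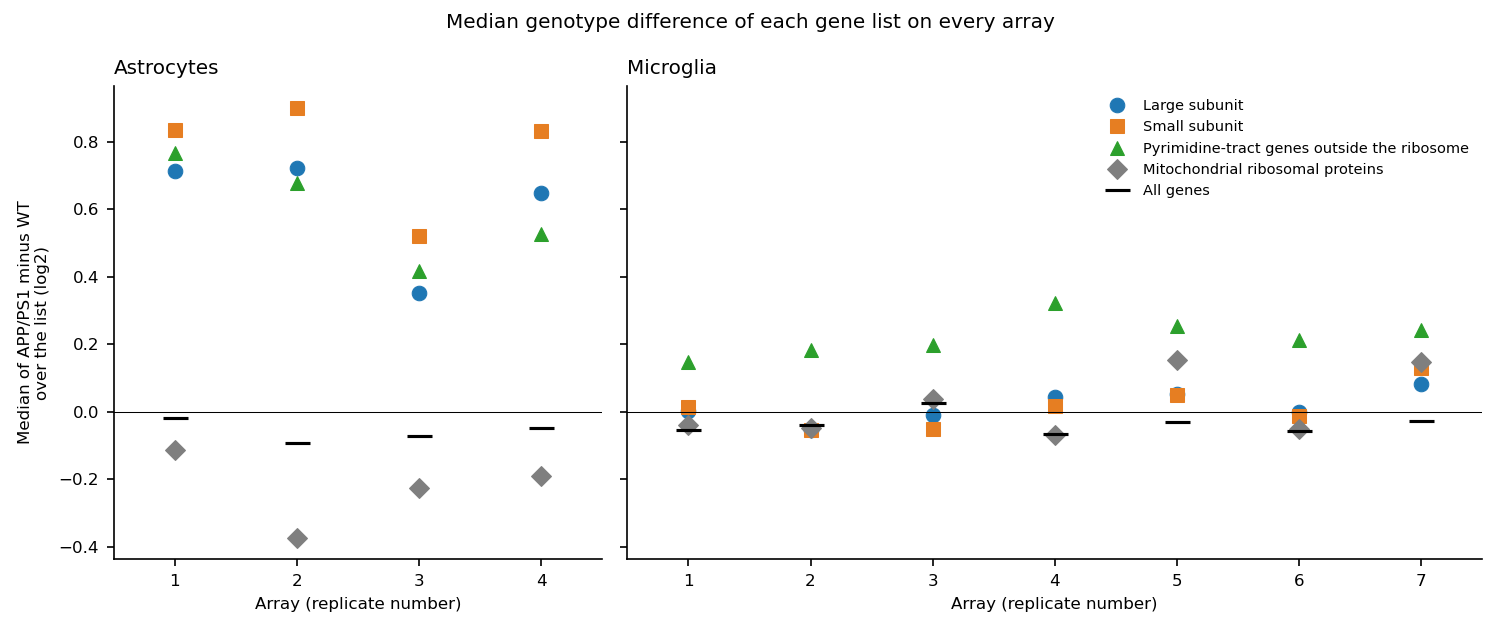
Median difference between APP/PS1 and WT on each array, on the log2 scale, over the genes of 5 lists, for 4 astrocyte and 7 microglia arrays. On each astrocyte array both ribosomal subunits lie between 0.35 and 0.90 while the mitochondrial ribosomal proteins lie below 0. In microglia the subunits lie within 0.13 of 0. The list of pyrimidine-tract genes includes Fau, which encodes the ribosomal protein RPS30.

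The astrocyte samples of the genotypes also differed in markers of cell type. All 8 of 8 astrocyte markers were lower in APP/PS1 astrocytes, with a median difference of -1.50 and array medians of -2.39, -1.81, -0.32 and -1.77. The log2 of their summed level was 16.15 to 18.19 in APP/PS1 astrocytes and 18.51 to 18.63 in WT astrocytes. Of 7 measured microglial markers 6 were higher, with array medians of 3.38, 1.53, 2.06 and 0.12 and a summed level of 11.74 to 14.56 in APP/PS1 astrocytes and 10.07 to 11.87 in WT astrocytes. All 5 endothelial markers and 4 of 5 mural cell markers were higher too, the endothelial ones with a summed level of 16.98 to 17.86 in APP/PS1 astrocytes and 16.06 to 17.04 in WT astrocytes. For the mural markers, genes of pericytes and vascular smooth muscle, it was 17.50 to 19.03 in APP/PS1 astrocytes and 14.84 to 17.57 in WT astrocytes. The neuronal markers overlapped, at 11.84 to 13.44 in APP/PS1 astrocytes and 12.20 to 13.73 in WT astrocytes, and the oligodendrocyte markers stood at 10.42 to 10.98 in APP/PS1 astrocytes and 11.17 to 11.78 in WT astrocytes. No marker of the first 4 lists was listed at 0 in an astrocyte sample, and the lowest single value was 4.60, of a microglial marker in a WT sample. On array 4 the microglial, endothelial and mural markers differed by 0.12, 1.71 and 1.21, and the ribosomal protein genes by 0.74. On array 3 the astrocyte markers differed least, and the microglial, endothelial and mural markers differed by 2.06, 1.19 and 2.60. There the ribosomal protein genes differed by 0.38. The part of these markers' cells in the ribosomal protein difference was not tested. In such bulk samples, fewer cells of a type and less RNA per cell cannot be told apart.

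**Figure D4:**
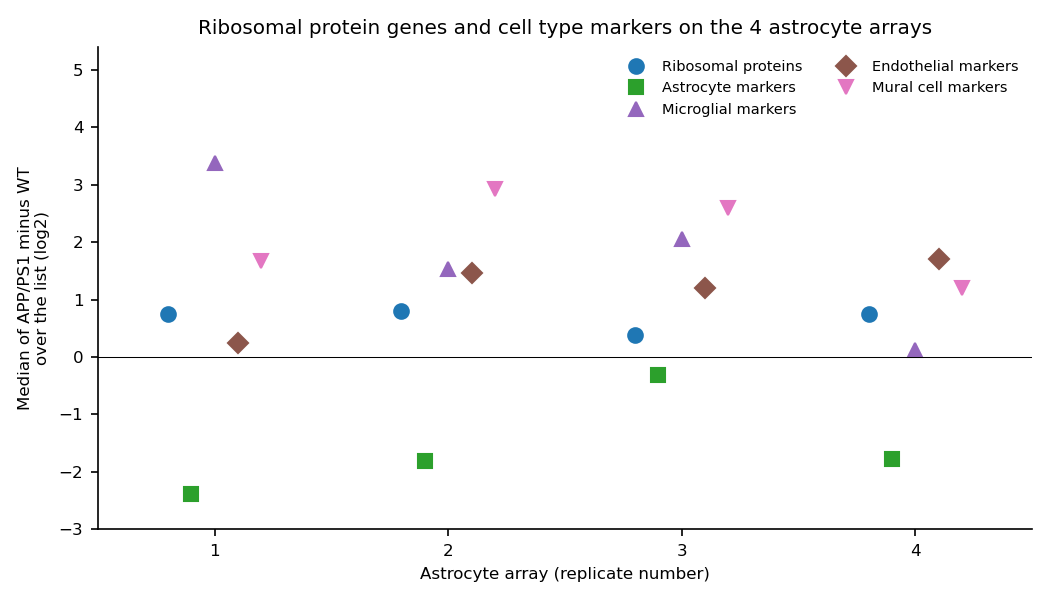
Median difference between APP/PS1 and WT on each astrocyte array, on the log2 scale, for the 73 ribosomal protein genes and 4 lists of cell type markers. The ribosomal protein genes lie at 0.38 to 0.80 on all 4 arrays, astrocyte markers below 0, and microglial, endothelial and mural cell markers above 0.

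The Y-linked gene Eif2s3y was on the same side of a log2 value of 7 in both samples of 2 of 4 astrocyte arrays and 6 of 7 microglia arrays. When only those arrays were used, an alternative added after the data had been seen, 61 of the 69 astrocyte calls remained and the median difference was 0.77. On the astrocyte arrays kept, 2 and 4, the median over the 73 genes was 0.80 and 0.74.

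In microglia most ribosomal protein genes did not pass the test. Of the 73, 5 rose and 1 fell, where 8.27% of all 22395 genes tested rose and 11.4% fell, 19.7% in all. At an unadjusted p under 0.05 the counts among the 73 were 13 and 5. The median difference was 0.01, a fold of 1.01, with 0.01 in the large and 0.02 in the small subunit. Array medians ran between -0.06 and 0.10. The median level of the 67 genes measured in all samples, which leave out Rpl41, was 15.21 to 15.42 in APP/PS1 microglia, with a mean of 15.30 ± 0.07 (SD, n = 7), and 15.24 to 15.46 in WT microglia, with a mean of 15.33 ± 0.09 (SD, n = 7). Markers of cell type differed here too. Of 7 measured microglial markers 4 fell and 1 rose, and their summed level was 18.18 to 18.51 in APP/PS1 microglia and 19.01 to 19.22 in WT microglia, lower on all 7 arrays. Of 8 astrocyte markers 4 fell, with a summed level of 10.68 to 11.68 in APP/PS1 microglia and 11.46 to 12.38 in WT microglia. Of 5 measured markers of monocytes and perivascular macrophages 4 fell, with a summed level of 10.80 to 11.52 in APP/PS1 microglia and 11.04 to 12.92 in WT microglia. The summed endothelial markers were higher on all 7 arrays, at 11.34 to 12.01 in APP/PS1 microglia and 8.85 to 10.87 in WT microglia. Only 1 of the 5, Flt1, rose, by 2.72 ± 0.21. The median difference over the 5 endothelial markers was 0.11, with array medians from -0.33 to 0.54. Their part in the microglial calls was not tested.

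By the 1 probe per gene, the clearest single difference in microglia was that of Rpl41, which encodes a very short and basic large-subunit protein. Its values had a lowest, median and highest of 16.36, 16.50 and 16.99 in APP/PS1 microglia, against 15.82, 16.04 and 16.20 in WT microglia, over the 6 arrays that measured it. It was the only one of the 73 genes whose APP/PS1 and WT microglia did not overlap, where 3.02% of all genes were apart in this direction and 2.18% in the other. The difference was 0.52 ± 0.09 (limma adjusted p = 0.00397), a fold of 1.44. In astrocytes it was 0.58 ± 0.11, and the test of the difference between cell types gave 0.06 ± 0.14 (limma adjusted p = 0.795).

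Rps28, a small-subunit protein near the messenger RNA exit, had a lowest, median and highest of 16.08, 16.33 and 16.78 in APP/PS1 microglia, against 15.84, 16.06 and 16.16 in WT microglia. It was higher on 7 of 7 arrays, by 0.31 ± 0.08 (limma adjusted p = 0.0183), though the groups overlapped. Rpl23, Rps12 and Rpl10a rose by 0.26, 0.25 and 0.24 (limma adjusted p = 0.0267, 0.0301 and 0.0199). Their second-brightest probes differed by 0.01, 0.15 and 0.15, and the dimmer Rpl23 probes by 0.37 to 0.46. Rpl35a, a large-subunit protein, was the 1 gene that fell, with 15.21, 15.31 and 15.54 in APP/PS1 microglia, against 15.44, 15.53 and 15.68 in WT microglia. It was lower on 7 of 7 arrays, by -0.21 ± 0.06 (limma adjusted p = 0.0401), while in astrocytes it differed by 0.90 ± 0.08. Its second probe differed by -0.07 in microglia. Just outside the threshold were Rpl21 at 0.27, Rpsa at 0.24 and Rps27l at 0.21 (limma adjusted p = 0.0515, 0.0592 and 0.0627). These calls were sensitive: without array 1 or array 6 of microglia only 1 rise passed, and without the array block 0 did, where 1 rise had an unadjusted p under 0.05. Fitted alone, slide 1 (4 arrays) gave 0 calls among the genes, with 2 rises and 0 falls at an unadjusted p under 0.05, and slide 2 (3 arrays) gave 0 calls, with 2 rises and 1 fall.

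The genotype difference was more positive in astrocytes than in microglia for 60 of the 73 genes by the test of that difference, 37 of the large and 23 of the small subunit, and more negative for 0. At an unadjusted p under 0.05 the counts were 65 and 1. Over all 22392 genes tested, 13.4% were more positive in astrocytes and 13.2% more negative, 26.6% in all. The median of the difference, astrocyte minus microglia, was 0.66. The largest that passed were Rpl39 at 1.18 ± 0.14, Rps7 at 1.14 ± 0.10, Rpl35a at 1.11 ± 0.10, Rps4x at 1.08 ± 0.11 and Rps19 at 1.03 ± 0.11 (limma adjusted p from 9.51e-05 for Rps7 to 0.000406 for Rpl39). Without the array block, 32 of the 60 passed.

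The cell types also differed in WT mice. Both sorts carried their own markers: the summed astrocyte markers were at 18.51 to 18.63 in WT astrocytes and 11.46 to 12.38 in WT microglia, and the summed microglial markers at 10.07 to 11.87 in WT astrocytes and 19.01 to 19.22 in WT microglia (log2). WT astrocyte samples also carried endothelial markers, summed at 16.06 to 17.04, against 8.85 to 10.87 in WT microglia. Their mural markers summed to 14.84 to 17.57, against 8.58 to 10.37 in WT microglia. The part of these vascular cells in the differences below was not tested. Of the 73 genes, 63 were lower in WT astrocytes than in WT microglia and 1 was higher, where 18.0% of all genes were lower and 35.3% higher, 53.3% in all. The median, WT astrocytes minus WT microglia, was -0.84 in the large and -1.15 in the small subunit, and 0.34 over all genes. Rps21, a small-subunit protein, had a mean of 9.24 ± 0.45 in WT astrocytes (SD, n = 4), against 12.61 ± 0.42 in WT microglia (SD, n = 7), a difference of -3.38 ± 0.24 (limma adjusted p = 1.56e-10). Rps3, which lies at the entry of the messenger RNA channel, differed by -2.47 ± 0.17 and Rpl36a by -2.23 ± 0.13. Rpl39l, with a mean of 4.00 in WT astrocytes and 7.75 in WT microglia, differed by -3.71 ± 0.67. The 1 gene that was higher was Rpl3l, by 1.94 ± 0.35 (limma adjusted p = 7.09e-05). Its values were low in both, at 5.52 to 5.87 in WT astrocytes and 3.01 to 4.56 in WT microglia. With slide as a random block it did not pass. The astrocyte arrays lay on 1 slide and the microglia arrays on the other slides, so the cell type and the slide cannot be told apart here.

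Genes of related processes were counted for comparison, and some lists share members. All lie outside the 73 genes except Rps27l, which is also in the p53 target list. Of all genes, 15.4% rose and 18.0% fell in astrocytes, and 8.27% rose and 11.4% fell in microglia. The first list includes Fau, described above. Among 19 other genes known for transcripts with a pyrimidine tract, 16 rose and 0 fell in APP/PS1 astrocytes (at an unadjusted p under 0.05, 18 rose and 0 fell), with a median of 0.58. They included the elongation factor subunits Eef1b2 at 0.96 and Eef1a1 at 0.79, the poly(A)-binding protein gene Pabpc1 at 0.96, the histone chaperone gene Nap1l1 at 0.91 and Tpt1 at 0.83. In microglia 10 of these 19 rose and 0 fell (at an unadjusted p under 0.05, 11 rose and 0 fell), with a median of 0.19. Nap1l1 at 0.58 and the initiation factor gene Eif4b at 0.59 passed there, while Eef1b2 and Tpt1, at -0.01 and -0.12, did not.

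The mitochondrial ribosomal protein genes did not move with the cytosolic ones. Of 78, 1 rose and 33 fell in APP/PS1 astrocytes, with a median of -0.23, where 15.4% of all genes rose and 18.0% fell. In APP/PS1 microglia 3 rose and 4 fell, with a median of 0.03, where 8.27% of all genes rose and 11.4% fell. Mrps22 differed by -0.74, Mrpl45 by -0.68, Mrpl41 by -0.67 and Mrps34 by -0.67 in astrocytes, and the 1 that rose was Mrpl13 at 0.27. WT astrocytes were higher than WT microglia in 62 of these 78 genes and lower in 4, with a median of 0.71. Of all genes, 35.3% were higher and 18.0% lower.

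The lists that follow are to be read against all genes, of which 15.4% rose and 18.0% fell in astrocytes and 8.27% rose and 11.4% fell in microglia. Of 43 translation factor genes, 17 rose and 9 fell in APP/PS1 astrocytes, with a median of 0.20, and 8 rose and 4 fell in APP/PS1 microglia. Of 66 ribosome biogenesis genes, whose products build ribosomes in the nucleolus, 9 rose and 14 fell in astrocytes, with a median of -0.01, and 7 rose and 11 fell in microglia. Within this list the nucleolar protein genes Ncl and Npm1 rose in APP/PS1 astrocytes by 0.74 and 0.57, and Nop56, of the box C/D particle that methylates ribosomal RNA, had -0.70. Of 25 genes of mTORC1 and S6 kinase signalling, 4 rose and 9 fell in astrocytes, and 2 rose and 8 fell in microglia. Larp1 differed by -0.32 in astrocytes, and the mTORC1 subunit gene Mlst8 by -0.85. Of 12 p53 target genes, 6 rose and 2 fell in astrocytes, and 4 rose and 3 fell in microglia, where Cdkn1a, the cell cycle inhibitor p21, had a difference of 2.89 ± 0.15. The p53 list includes Rps27l, itself 1 of the 73 ribosomal protein genes and among the 6 that rose in astrocytes. Mdm2 itself, at -0.09 in astrocytes and -0.01 in microglia, did not pass.

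The genes with and without a tract in their start region were set side by side in astrocytes. The 38 genes with a tract had a median difference of 0.75, and 37 of them rose. The 20 without a tract had a median of 0.68, and 18 rose. The ranges overlapped, from 0.31 to 1.21 with a tract and from -0.50 to 0.99 without. The tracts shown above were of 8, 9, 10, 13, 17 and 18 bases in Rpl38, Rplp2, Rps6, Rps10, Rpl15 and Rpl35. These genes differed by 0.56, 0.59, 0.89, 0.53, 0.46 and 0.47. They are few of the 38 genes with a tract, and a relation of length and difference was not tested.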

How the data were processed

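The authors deposited 1 table of log2 single-channel intensities, 22 columns from 11 arrays on 3 slides, per the labels; limma is named in the submitters' processing notes without a version, and how background was corrected and channels normalized is not given in the sources used here. Of 43020 probes, 33026 named 1 gene, 0 several and 9994 none; the unnamed were not used. Of the 73 genes, 67 were measured on all arrays, 72 matched the RefSeq table, and 4 values of 2 genes lay within 0.5 of the highest value, 17.89, so their differences may be compressed. APP/PS1 samples were in Cy3 on 2 of 4 astrocyte and 4 of 7 microglia arrays. The number of arrays limits the precision.

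Genotype differences were fitted with limma 3.58.1 in R 4.3.3 (two-sided, Benjamini-Hochberg over all genes, 0.05) in 1 model of 22 samples, with array as fixed block, dye as covariate and genotype nested in cell type. Cell types were compared in their genotype difference by the interaction term. WT cell types were compared with array as random block. The pairing comes from the labels, which place both samples of a number on 1 array; within-group deviations of same-array samples had, across genes, a median correlation of 0.47 in microglia (0.37 to 0.63) and 0.23 in astrocytes (0.00 to 0.50). The fit was tested on simulated data. p-values measure the spread between these samples. Genes, lists and tests were chosen with earlier results of these data known. Genes named are the 10 largest rises and falls per cell type, the 5 largest differences between cell types, the 5 brightest and 5 dimmest, the stalk, 5S particle and paralog genes and Rps6, Rpsa and Fau. List and marker members outside this rule, and array 3 and 4 comparisons, were chosen after values were seen. Figures were drawn with matplotlib 3.10.9.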

Additional observations from a re-analysis of the deposited data

Results flagged for a closer look

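Within the 4 groups, the level of a gene in 11 of the 290 gene and group sets tested had 1 sample apart from the rest by Dixon's test at 95%, which is 3.79%; chance alone gives about 5%. These were single low samples for Rps14 and Rpl24 in APP/PS1 astrocytes (replicate 3, at 16.65 and 15.13), for Rps21 and Rps4l in WT astrocytes (replicate 2, at 8.57 and 10.03), and 7 samples in microglia. The genotype difference itself differed between cell types in 60 of the 73 genes, each more positive in astrocytes, by the interaction test described above.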

How the results depend on the processing

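Without the array block (the pairing), 53 genes rose in astrocytes, 32 had a more positive difference there than in microglia, and 0 rose and 0 fell in microglia. Each cell type fitted alone gave 39 rises in astrocytes, all among the 69, and 2 falls in microglia. Over all genes, 1387 of 22474 rose in astrocytes without the block and 1476 of 22461 with astrocytes fitted alone. In microglia the 5 rises became 8 with all probes averaged, 8 over genes measured in all samples, 11 over genes above the median gene, 12 after quantile normalization, 2 on arrays matched in Eif2s3y (added after seeing the data), and 0 on slide 1 or slide 2 alone. The 1 fall became 4 over genes above the median gene, 2 with array as a random block, and 0 with averaged probes, matched arrays, no dye term, quantile normalization, or either slide alone. Falls over all genes numbered 2853 of 11240 above the median gene and 2552 of 22395 in the main fit. The large-subunit median in microglia was 0.058 after quantile normalization. With slide as a random block, 0 genes were higher in WT astrocytes than in WT microglia and 47 were lower, against 63. Causes were not tested, but slide 2 alone left 1 residual degree of freedom and called 0 of 20721 genes.

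Leaving out 1 replicate gave 64 to 69 rises and 0 to 1 falls in astrocytes, 1 to 6 rises and 0 to 2 falls in microglia, and 52 to 62 genes with a more positive difference in astrocytes. Medians were 0.57 to 0.68 (large) and 0.72 to 0.85 (small) in astrocytes, and -0.02 to 0.02 and -0.01 to 0.04 in microglia. Microglia replicates 1 and 6 each left 1 rise there, replicate 4 left 2 and replicate 7 left 3. No ribosomal protein gene past the threshold in astrocytes, in microglia or in the difference between them reversed its direction in these alternatives. Rpl21 and Rpl10l, which did not pass, turned to 0.29 and -0.25 in astrocytes with all probes averaged, against -0.10 and 0.17, and Rpl21 then passed (limma adjusted p = 0.0481).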
